A study of Mus musculus with 4 samples.

Results

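Genes of triglyceride breakdown, triglyceride synthesis and the lipid droplet surface were followed in adult mouse hearts. The 10 members are *Pnpla2*, *Lipe*, *Mgll*, *Abhd5*, *Ces1d*, *Plin2*, *Plin4*, *Plin5*, *Dgat1* and *Dgat2*. Their rows were found by gene name among the 55401 rows of the deposited expression table, and all 10 were present. The list itself was drawn up with earlier results of these data known. Hearts came from mice aged 8 weeks and gave 4 libraries of polyA RNA, 2 of the wild type and 2 of *Ctcf* heterozygotes. Each library was taken to come from a separate mouse. Heterozygous mice carried the CTCF-R567W substitution, made by genome editing with CRISPR/Cas9 in C57BL/6N mice, on 1 of their *Ctcf* alleles. CTCF is a DNA-binding protein that shapes chromatin loops and boundaries. The allele was present in every cell of the animal, so the design does not separate an effect arising in heart muscle cells from one arising elsewhere in the body. The comparison addresses which genes differ in expression between the hearts of adult wild-type and heterozygous mice.

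A heart draws most of its energy from fatty acids, and it keeps a part of them as triglyceride in lipid droplets. *Pnpla2* encodes adipose triglyceride lipase, which removes the first fatty acid from triglyceride, and *Abhd5* encodes the protein that activates it. *Lipe* encodes hormone-sensitive lipase, which cleaves diacylglycerol, and *Mgll* encodes monoacylglycerol lipase, which completes the breakdown. *Ces1d* encodes a carboxylesterase with triglyceride hydrolase activity. Perilipins coat the droplet: perilipin 5 (*Plin5*) is abundant in oxidative tissues and ties droplets to mitochondria, perilipin 2 (*Plin2*) is the widespread form, and perilipin 4 (*Plin4*) is found in muscle and fat. *Dgat1* and *Dgat2* encode unrelated enzymes that catalyse the same last step of triglyceride synthesis. Fatty acids freed by lipases serve as ligands of the nuclear receptor PPARα, and several genes of this group are known PPAR targets.

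The sequences before the transcription start are shown for the lipase and its activator and for the 3 perilipins, because members of each set stood apart from one another in the hearts. Promoter sequence of RefSeq (GRCm38.p6, the assembly also called mm10) was at hand for 7 members and not for *Ces1d*, *Dgat1* and *Dgat2*. Each window holds 200 bases, from 250 to 51 bases before the RefSeq start, written 5′ to 3′ on the strand of the gene. Capitals mark the nuclear receptor hexamer AGGTCA, the GC box GGGCGG and the CCAAT box, each searched on both strands.
*Pnpla2*, chr7:141454938-141455137, plus strand: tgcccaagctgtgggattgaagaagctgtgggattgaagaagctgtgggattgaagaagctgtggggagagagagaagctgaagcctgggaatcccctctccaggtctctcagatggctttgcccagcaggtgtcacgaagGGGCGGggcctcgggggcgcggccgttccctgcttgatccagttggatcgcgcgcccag
*Abhd5*, chr9:122351366-122351565, plus strand: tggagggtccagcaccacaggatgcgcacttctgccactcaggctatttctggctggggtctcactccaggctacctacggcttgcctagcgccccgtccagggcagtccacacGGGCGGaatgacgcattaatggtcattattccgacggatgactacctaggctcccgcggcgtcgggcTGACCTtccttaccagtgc
*Plin5*, chr17:56117599-56117798, minus strand: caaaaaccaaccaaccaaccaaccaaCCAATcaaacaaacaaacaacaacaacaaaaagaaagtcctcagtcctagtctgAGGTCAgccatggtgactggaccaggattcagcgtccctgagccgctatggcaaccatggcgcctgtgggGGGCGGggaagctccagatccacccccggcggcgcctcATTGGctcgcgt
*Plin2*, chr4:86670110-86670309, minus strand: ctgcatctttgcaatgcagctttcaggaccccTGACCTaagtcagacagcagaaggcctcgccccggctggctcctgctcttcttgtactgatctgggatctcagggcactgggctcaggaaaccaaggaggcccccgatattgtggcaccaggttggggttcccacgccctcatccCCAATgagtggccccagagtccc
*Plin4*, chr17:56109833-56110032, minus strand: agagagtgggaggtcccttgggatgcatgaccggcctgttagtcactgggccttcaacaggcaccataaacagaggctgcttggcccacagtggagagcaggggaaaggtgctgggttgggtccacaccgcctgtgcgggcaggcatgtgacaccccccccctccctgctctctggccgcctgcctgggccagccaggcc
RefSeq gives more than 1 start for *Plin5*, *Lipe* and *Mgll*, so 10 member windows were searched, and for *Plin5* the window of the upstream start is shown. The hexamer AGGTCA occurred in 3 of the 10, those of *Abhd5*, *Plin2* and the upstream start of *Plin5*, and 11.4% of the 32851 promoter windows of this length held it. The window of the other *Plin5* start held neither this hexamer nor CCAAT. The *Pnpla2* and *Plin4* windows did not hold these letters. GGGCGG was found in 6 of the 10, among them those of *Pnpla2*, *Abhd5* and *Plin5*, against 24.6% of all windows. The 10 windows held 56.0% to 75.0% G or C, against a median of 51.5% over all windows, and this was not allowed for. CCAAT was found in 2, those shown for *Plin5* and *Plin2*, against 28.4%. The tandem form AGGTCANAGGTCA, of the kind that PPARs bind, was in 0 member windows and in 0.0244% of all windows. A form this rare would hardly be met in 10 windows, so its absence says nothing about the members. These matches describe the letters of short windows and do not show that a factor binds.

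Values are TPM, transcript abundances per unit of length as a share of the library total, so levels can be compared between genes. Genes of the mitochondrial genome and 10 nuclear copies of them took most of each library, and all other genes held 21.2% and 24.0% of the TPM in wild types against 14.2% and 17.6% in heterozygotes (replicate 1, then replicate 2, here and for every pair of values). TPM sum to a fixed total, and with values as deposited 90.6% of the 10036 tested genes were lower in heterozygous hearts. Each library was therefore divided by a median-of-ratios factor (1.09 and 1.26 for wild-type, 0.818 and 0.903 for heterozygous), and the result is called scaled TPM. A log2 fold change here is the heterozygous minus the wild-type mean of log2(scaled TPM + 1), which understates the change of low genes, and a gene counted as called in limma when its fold change was over 1.5 with an adjusted p under 0.05. *Ctcf* itself, whose allele cannot be read from TPM, had 6.66 and 7.59 TPM in wild-type and 6.14 and 5.20 in heterozygous hearts as deposited. After scaling the *Ctcf* genotypes overlapped, at 6.12 and 6.02 in wild types against 7.51 and 5.76 in heterozygotes, so its direction depended on the scaling. In whole-heart RNA, fewer cells of a type and less RNA per cell cannot be told apart.

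None of the 10 members was called, where 0.0199% of all tested genes were called lower. Of the members, 6 (*Ces1d*, *Dgat2*, *Pnpla2*, *Plin5*, *Lipe* and *Plin2*) had an unadjusted limma p under 0.05 with a lower mean in heterozygous hearts, and 5.71% of all tested genes did. No member reached it with a higher mean. For 7 members the genotypes did not overlap and heterozygotes were lower, against 23.3% of all tested genes. *Dgat1* lay the other way by a narrow gap, with 15.5 and 15.2 scaled TPM in wild types against 15.7 and 17.4 in heterozygotes. How many of all tested genes were higher without overlap was not counted, so nothing is read from that gap. The fitted difference was negative for 8 of 10 members, against 50.7% of all genes. The median log2 fold change was -0.51 over the members and -0.005 over all tested genes. Because the members were chosen with earlier results of these data known, these shares and medians describe them. They do not test for an excess. Summed over the 10 genes, scaled TPM were 149.2 and 157.8 in wild types against 92.3 and 104.3 in heterozygotes. With 2 libraries in each group, an exact permutation test of 1 gene cannot give a two-sided p under 0.333.

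**Figure D1:**
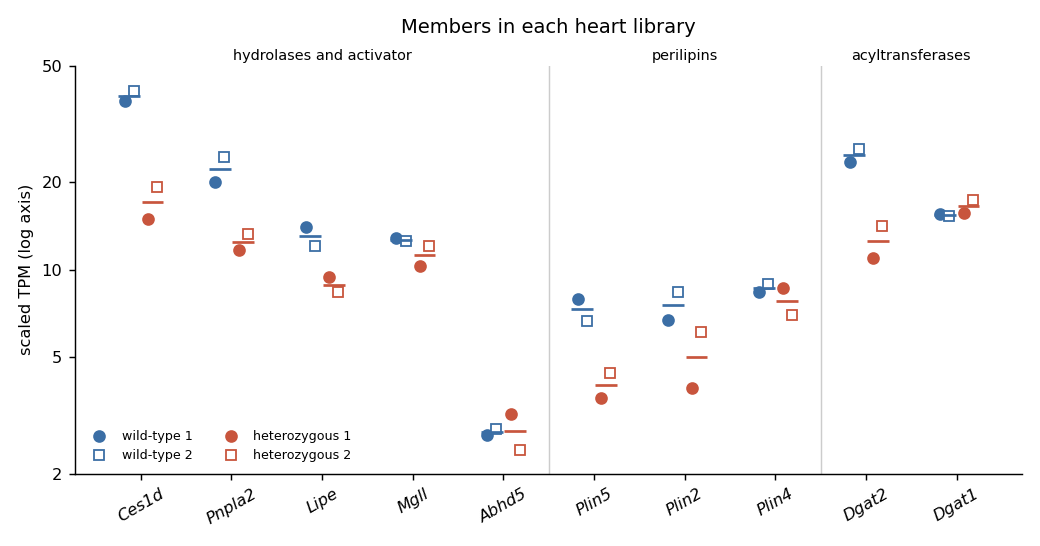
Scaled TPM of the 10 members (log axis) in the 2 wild-type hearts (blue) and the 2 heterozygous hearts (red), with circles for replicate 1, open squares for replicate 2 and bars for the genotype means, grouped by role. The wild-type and heterozygous points of *Ces1d*, *Pnpla2*, *Plin5* and *Dgat2* are separate, while those of *Abhd5* and *Plin4* overlap.

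Among the hydrolases, *Ces1d* (chromosome 8, 93166068 to 93197838, minus strand) differed most. It was listed at 41.1 and 51.5 TPM in wild types against 12.2 and 17.4 TPM in heterozygotes. Both heterozygous values were under 20 TPM and both wild-type values over 40 TPM. After scaling the means were 39.3 ± 2.21 and 17.1 ± 3.04 (SD, n = 2 each), giving a log2 fold change of -1.17 ± 0.18 (standard error, 95% interval -1.60 to -0.73, limma adjusted p = 0.199), and only 0.359% of the tested genes had a lower value. The nearest other gene by sequence was *Ces1g*, 81.2% identical over 1777 bases, and no other *Ces1* gene was listed above 0.38 TPM in any heart.

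*Pnpla2*, the lipase of the first step (chromosome 7, 141455198 to 141460743, plus strand), was listed at 21.7 and 30.7 TPM in wild types against 9.51 and 12.0 TPM in heterozygotes. The genotypes did not overlap, and the 2 wild types lay further apart than the 2 heterozygotes. Scaled means were 22.1 ± 3.11 and 12.4 ± 1.14 (SD, n = 2 each), which is 43.8% lower in the heterozygous hearts. The log2 fold change was -0.78 ± 0.17 (standard error, 95% interval -1.19 to -0.37, limma adjusted p = 0.290). The tested gene nearest to it, *Cracr2b*, begins 350 bases beyond the end of *Pnpla2* and had a log2 fold change of -0.01. On the other side *Rplp2*, 3612 bases away, had 0.25 (limma adjusted p = 0.577).

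*Abhd5*, the activator of that lipase (chromosome 9, 122351608 to 122381524, plus strand), was listed at 2.94 and 3.59 TPM in wild types against 2.61 and 2.18 TPM in heterozygotes. After scaling its values overlapped, with means of 2.78 ± 0.104 and 2.80 ± 0.551 (SD, n = 2 each). The log2 fold change was 0.003, with a 95% interval of -0.36 to 0.37, so differences within that interval could not be told from 0 here, and the sign followed the scaling (-0.33 with TPM as deposited). An antisense gene, A730085K08Rik, shares 950 exon bases with *Abhd5* (16.0% of its exon length) and was listed at 0.09 and 0.07 TPM in wild types against 0.29 and 0.30 TPM in heterozygotes, higher without overlap. The strand setting of the quantification was not given in the sources used here, so reads of the shared part are uncertain.

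Lipase and activator were also compared as a ratio within each heart, which no scaling of the library can alter. *Pnpla2* over *Abhd5* was 7.38 and 8.54 in wild types against 3.64 and 5.49 in heterozygotes. The difference on the log2 scale was -0.83, without overlap (two-sided exact permutation test, p = 0.333). The inhibitor of the same lipase, *G0s2*, had scaled means of 9.22 ± 1.22 and 9.79 ± 1.49 (SD, n = 2 each), which overlapped. *Pnpla2* over *G0s2* was 2.39 and 2.41 against 1.33 and 1.22, a log2 difference of -0.91 (exact permutation test, p = 0.333). Thus *Pnpla2* was lower in the heterozygous hearts relative to the transcripts of both its activator and its inhibitor, in 2 of 2 hearts each. The log2 fold changes of *Abhd5* (0.003) and *G0s2* (0.08) lay near the median of all tested genes, -0.005. Both ratios therefore largely repeat the difference of *Pnpla2* itself.

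*Lipe* (chromosome 7, 25379527 to 25398710, minus strand) had 15.2 TPM in both wild-type hearts and 7.69 and 7.57 TPM in the heterozygous hearts. As deposited, hearts of the same genotype were close together, and the genotypes were separate on either scale. The scaled means were 13.0 ± 1.36 and 8.89 ± 0.726 (SD, n = 2 each), giving a log2 fold change of -0.50 ± 0.16 (standard error, limma adjusted p = 0.344). An antisense gene, 4732471J01Rik, shares 918 exon bases with *Lipe* (15.6% of its exon length) and was listed at 0.04 TPM or less in every heart. *Pnpla2* over *Lipe* was 1.42 and 2.01 in wild types against 1.24 and 1.58 in heterozygotes, which overlapped (exact permutation test, p = 0.667).

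*Mgll*, the enzyme of the last step (chromosome 6, 88724412 to 88828360, plus strand), was listed at 13.9 and 15.8 TPM in wild types against 8.43 and 10.9 TPM in heterozygotes. Scaled means were 12.7 ± 0.227 and 11.2 ± 1.24 (SD, n = 2 each), and the log2 fold change was -0.17 (95% interval -0.54 to 0.20, adjusted p = 0.664 from limma). The sign turned on cardiomyocyte markers alone, where the value was 0.065. The scaled values did not overlap, but the heterozygotes, at 10.3 and 12.1, lay further apart than the genotype means. *Mgll* over *Pnpla2* was 0.643 and 0.514 in wild types against 0.886 and 0.911 in heterozygotes, a log2 difference of 0.65 (exact permutation test, p = 0.333). With single libraries left out, the *Mgll* log2 fold change ran from -0.27 (without heterozygous replicate 2) to -0.062 (without heterozygous replicate 1).

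Of the perilipins, *Plin5* (chromosome 17, 56111601 to 56117596, minus strand) had the largest difference. It was listed at 8.66 and 8.43 TPM in wild types against 2.97 and 4.0 TPM in heterozygotes. The wild-type hearts were alike and both heterozygotes lay well under them. After scaling the means were 7.33 ± 0.897 and 4.03 ± 0.562 (SD, n = 2 each), which is 45.0% lower, giving a log2 fold change of -0.73 ± 0.16 (standard error, 95% interval -1.11 to -0.35, limma adjusted p = 0.290).

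*Plin2* (chromosome 4, 86648386 to 86670060, minus strand) was listed at 7.29 and 10.6 TPM in wild types against 3.22 and 5.51 TPM in heterozygotes. Replicates of one genotype differed more for this gene than for *Plin5*. The scaled means were 7.55 ± 1.19 and 5.02 ± 1.53 (SD, n = 2 each), giving a log2 fold change of -0.52 ± 0.21 (standard error, limma adjusted p = 0.399). With single libraries left out the value ran from -0.79 to -0.26, the latter without heterozygous replicate 1. *Rraga*, a gene of amino acid sensing that lies 71100 bases from *Plin2*, had mean scaled TPM of 2.18 in wild types and 1.39 in heterozygotes, with a log2 fold change of -0.42 (adjusted p = 0.384 from limma).

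*Plin4* (chromosome 17, 56100591 to 56109803, minus strand) was listed at 9.11 and 11.2 TPM in wild types against 7.07 and 6.30 TPM in heterozygotes. Scaled values overlapped, with means of 8.64 ± 0.382 and 7.81 ± 1.18 (SD, n = 2 each) and a log2 fold change of -0.14 (95% interval -0.52 to 0.24, adjusted p = 0.733 from limma). On cardiomyocyte markers alone the value was 0.092. *Plin4* and *Plin5* lie next to each other on the same strand, 1797 bases apart, and *Plin5* over *Plin4* was 0.951 and 0.751 in wild types against 0.420 and 0.635 in heterozygotes. The log2 difference of this ratio was -0.71, with no overlap (exact permutation test, two-sided, p = 0.333). *Plin5* over *Plin2* was 1.19 and 0.798 against 0.922 and 0.726, which overlapped (exact permutation test, p = 0.667). Beyond *Plin5* the next tested gene, *Lrg1*, had a log2 fold change of -0.04. *Hdgfl2*, on the other side of *Plin4* and sharing 17 exon bases with it, had 0.30 (adjusted p = 0.481 from limma).

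**Figure D2:**
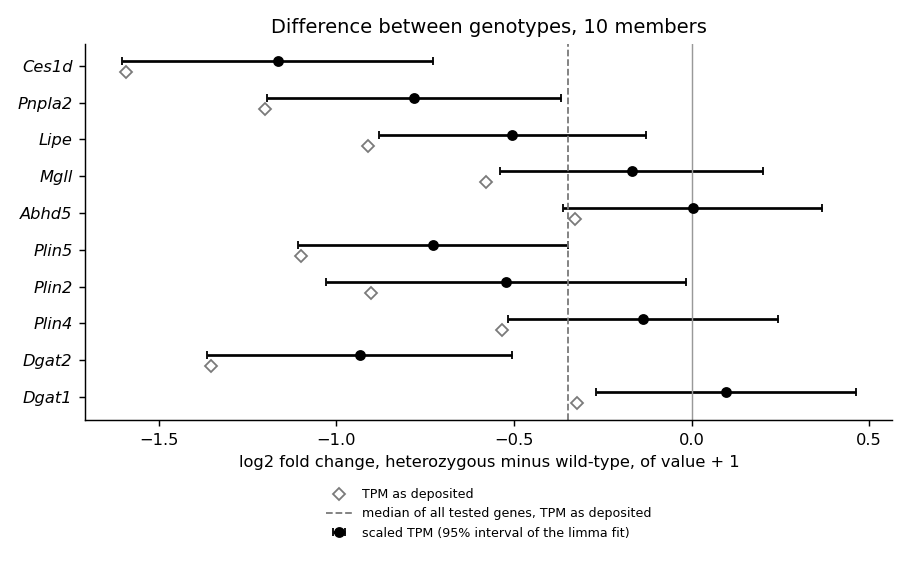
Log2 fold change, heterozygous minus wild-type, of each member on scaled TPM (black points with the 95% interval of the limma fit) and on TPM as deposited (open diamonds), both after adding 1. The dashed line is the median of all tested genes for TPM as deposited, -0.35. On scaled TPM, 6 intervals lie under 0, and on TPM as deposited *Abhd5* and *Dgat1* sit close to the median of all genes.

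The 2 acyltransferases stood apart, with log2 fold changes of -0.93 and 0.10. *Dgat2* (chromosome 7, 99153658 to 99182719, minus strand) was listed at 25.4 and 32.7 TPM in wild types against 8.94 and 12.7 TPM in heterozygotes. Every wild-type value was over 25 TPM and every heterozygous value under 13 TPM. The scaled means were 24.7 ± 1.81 and 12.5 ± 2.22 (SD, n = 2 each), giving a log2 fold change of -0.93 ± 0.18 (standard error, 95% interval -1.36 to -0.50, limma adjusted p = 0.271).

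*Dgat1* (chromosome 15, 76502015 to 76511953, minus strand) was listed at 16.9 and 19.2 TPM in wild types against 12.8 and 15.7 TPM in heterozygotes. Its scaled means were 15.4 ± 0.231 and 16.5 ± 1.202 (SD, n = 2 each), and the log2 fold change was 0.10 (95% interval -0.27 to 0.46, adjusted p = 0.807 from limma). The sign of this value depended on the scaling, since it was -0.32 with TPM as deposited. The ratio does not: *Dgat2* over *Dgat1* was 1.505 and 1.71 in wild types against 0.697 and 0.810 in heterozygotes. *Dgat2* thus was the more abundant transcript in both wild-type hearts and *Dgat1* in both heterozygous hearts, with a log2 difference of -1.09 (exact permutation test, two-sided, p = 0.333). The summed acyltransferases over *Pnpla2* were 1.95 and 1.69 against 2.29 and 2.38, a log2 difference of 0.36 (exact permutation test, p = 0.333).

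**Figure D3:**
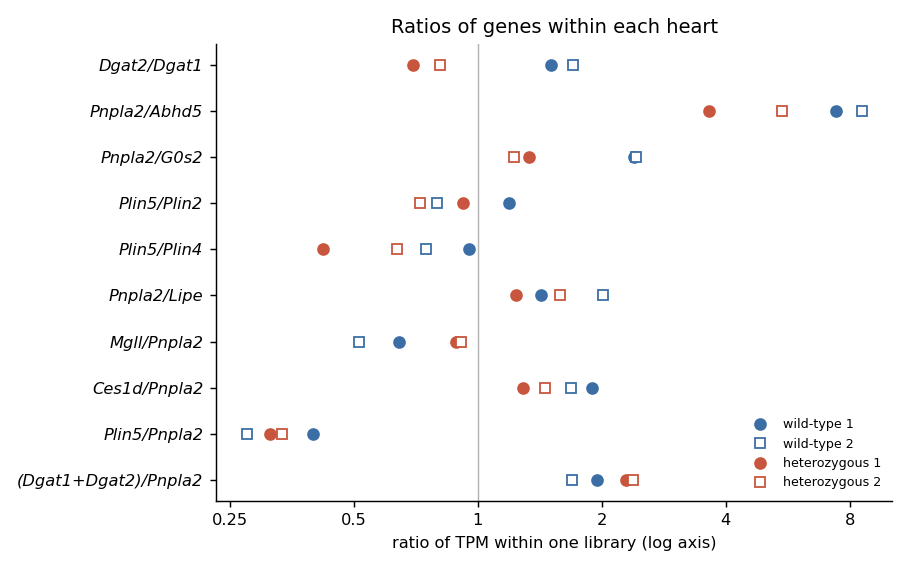
Ratio of TPM of 2 genes within the same heart (log axis) for 10 pairs, with wild-type hearts in blue, heterozygous hearts in red, circles for replicate 1 and open squares for replicate 2. The *Dgat2* to *Dgat1* ratio is over 1 in both wild-type hearts and under 1 in both heterozygous hearts, and the *Plin5* to *Pnpla2* ratio overlaps between genotypes.

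*Plin5* and *Pnpla2*, whose products meet on the droplet, had nearly the same difference, and *Plin5* over *Pnpla2* was 0.399 and 0.275 in wild types against 0.312 and 0.334 in heterozygotes, which overlapped (exact permutation test, p = 1). *Ces1d* over *Pnpla2* was 1.89 and 1.68 against 1.28 and 1.45, a log2 difference of -0.38 (exact permutation test, p = 0.333). In all 10 such ratios were compared, *Pnpla2* enters 7 of them, and no adjustment over them can bring a p of 0.333 under 0.05.

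As a share of the summed TPM of the 10 members, *Ces1d* took 25.3% and 25.9% in wild types against 16.2% and 18.4% in heterozygotes. *Dgat1* took 10.4% and 9.64% against 17.0% and 16.7%. By mean scaled TPM the order in wild-type hearts was *Ces1d*, *Dgat2*, *Pnpla2*, *Dgat1*, *Lipe*, *Mgll*, *Plin4*, *Plin2*, *Plin5* and *Abhd5*. In that order *Dgat2* and *Pnpla2* overlapped, as did *Lipe* and *Mgll*, *Plin4* and *Plin2*, and *Plin2* and *Plin5*. In heterozygous hearts the order was *Ces1d*, *Dgat1*, *Dgat2*, *Pnpla2*, *Mgll*, *Lipe*, *Plin4*, *Plin2*, *Plin5* and *Abhd5*. Here *Ces1d* was no longer apart from *Dgat1*, and *Dgat2*, *Pnpla2* and *Mgll* overlapped in turn, as did *Lipe* and *Plin4*, and *Plin2* and *Plin5*.

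**Figure D4:**
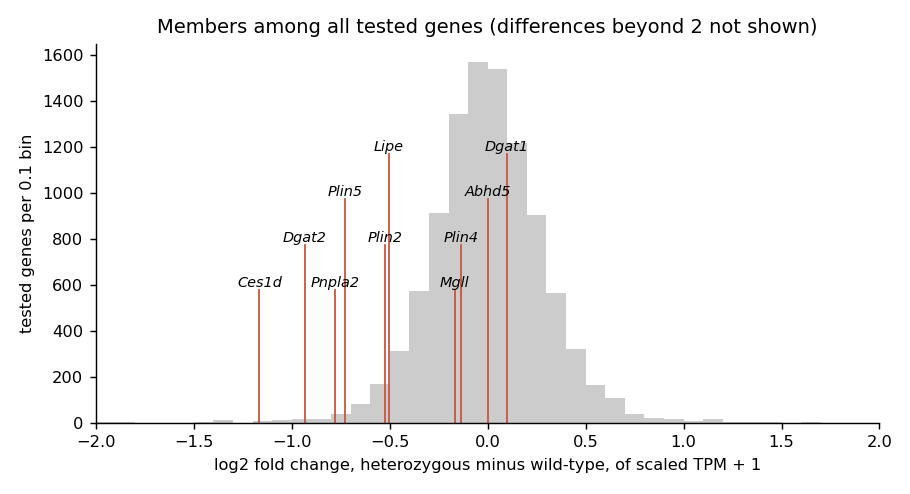
Number of tested genes in each 0.1-wide bin of log2 fold change, heterozygous minus wild-type, of scaled TPM + 1 (grey), with red lines at the members. *Ces1d*, *Dgat2*, *Pnpla2* and *Plin5* lie in the lower tail, at -1.17 to -0.73, and *Abhd5* and *Dgat1* lie near the centre.

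How far the values rest on the scaling was read from the alternatives. With TPM as deposited, all 10 members were lower in heterozygous hearts, with a member median of -0.91, but the median of all genes was then -0.35. Relative to the median of all genes, the member median was -0.51 on scaled TPM, -0.56 as deposited and -0.57 with the mitochondrial genes removed. Scaled on cardiomyocyte markers alone, it was -0.48 relative to all genes, but the member median itself was -0.29, with 6 of 10 members lower, *Lipe* at -0.27 and *Plin2* at -0.31. *Ces1d*, *Dgat2*, *Pnpla2* and *Plin5* kept an unadjusted limma p under 0.05 in all 17 fits, those on scaled TPM and 16 alternatives. *Lipe* did so in 14 of them and *Plin2* in 12. The number of members at that level was 6 of 10 on scaled TPM, beside 5.71% of all genes, and 4 without wild-type replicate 1 (2.52% of all genes) or without wild-type replicate 2 (2.26%). It was 4 on cardiomyocyte markers (1.06%) and 8 with TPM as deposited (33.3%). In a fit without the mitochondrial genes *Ces1d* was called (log2 fold change -1.52, adjusted p = 0.0352 from limma), as 1 of 14 called genes. The median of all genes in that fit was -0.31. Relative to it *Ces1d* stood at -1.22, against -1.16 on scaled TPM. With the nuclear copies removed as well, its limma adjusted p was 0.136, and without the filter on low values it was 0.444.

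Other genes of the pathway came from lists drawn up by function, with earlier results of these data known. Of 25 lipolysis inhibitors and other droplet proteins, 21 were tested, and 13 were lower and 8 higher, with a median log2 fold change of -0.07. Of these 1, *Fitm1*, had an unadjusted p under 0.05. It encodes a muscle protein that promotes droplet formation, and it stood at 26.0 ± 1.45 and 18.1 ± 3.04 scaled TPM (SD, n = 2 each), with a log2 fold change of -0.51 (adjusted p = 0.368 from limma). Its relative *Fitm2* had a log2 fold change of -0.30, and *Hsd17b11*, a dehydrogenase found on droplets, -0.32. *Plin3*, the remaining perilipin expressed here, had 4.29 ± 0.393 and 4.77 ± 0.280 scaled TPM, with a log2 fold change of 0.13 (adjusted p = 0.717). *Hilpda*, another inhibitor of the lipase, had a log2 fold change of 0.09, and *Aup1*, the most abundant gene of the list, 0.24.

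Of 31 other neutral lipid hydrolases 11 were tested, 7 lower and 4 higher, with a median of -0.03. *Nceh1*, a neutral cholesterol ester hydrolase, had 4.87 ± 0.152 and 2.95 ± 0.274 scaled TPM (SD, n = 2 each) and a log2 fold change of -0.57 (adjusted p = 0.308 from limma). Among the relatives of *Pnpla2*, *Pnpla8* had a log2 fold change of -0.28, *Pnpla7* -0.08 and *Pnpla6* 0.35.

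Of 29 genes of glycerolipid synthesis 21 were tested, 11 lower and 10 higher, with a median of -0.03. *Gpam*, the mitochondrial acyltransferase that begins the pathway, had 6.13 ± 0.630 and 3.45 ± 0.153 scaled TPM (SD, n = 2 each), a log2 fold change of -0.68 (adjusted p = 0.290 from limma). *Acsl1*, which activates fatty acids, had 37.5 ± 2.18 and 28.1 ± 2.50, a log2 fold change of -0.40 (adjusted p = 0.406). *Gpd1*, which makes glycerol 3-phosphate, had 2.08 ± 0.219 and 3.03 ± 0.370, a log2 fold change of 0.39 (adjusted p = 0.376). *Plpp1*, a lipid phosphatase, had a log2 fold change of -0.25.

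A list of 22 genes held fatty acid genes known to respond to PPARs, and also genes of the PPARs themselves and their coactivators. Of the 22 genes 19 were tested, 18 lower and 1 higher (*Ppard*, at 0.03), with a median of -0.45. Of these, 10 had an unadjusted limma p under 0.05 and 16 had separate genotypes, all with lower heterozygous values. Among all tested genes the shares were 5.71% and 23.3%. This list too was chosen with earlier results known, so its counts are only described. *Pdk4*, a kinase that restrains glucose oxidation, had 10.8 ± 4.30 and 1.86 ± 0.731 scaled TPM (SD, n = 2 each), a log2 fold change of -2.02 (adjusted p = 0.174 from limma). *Angptl4*, an inhibitor of lipoprotein lipase, had 2.46 ± 1.01 and 0.360 ± 0.149, a log2 fold change of -1.32 (adjusted p = 0.208). *Ucp3*, a mitochondrial uncoupling protein gene, stood at -1.45. *Cpt1b* and *Acadvl*, abundant genes of fatty acid oxidation, both stood at -0.20. No gene of any of these lists was called. Scaled on cardiomyocyte markers, the medians of the droplet protein, hydrolase and glycerolipid lists turned to 0.12, 0.15 and 0.16, and that of the PPAR-responsive genes was -0.26. With the minimum mean TPM raised to 5, the glycerolipid median was -0.25 and the droplet protein median 0.04, and without wild-type replicate 1 the glycerolipid median was -0.11.

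**Figure D5:**
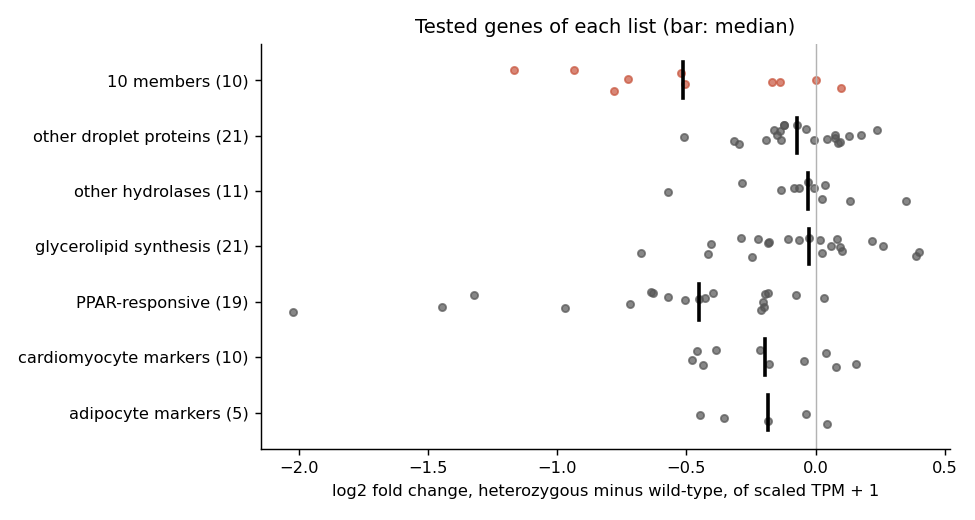
Log2 fold change, heterozygous minus wild-type, of scaled TPM + 1 for each tested gene of the members and of 6 lists, with a bar at each median and the number of tested genes in brackets. The members' median is -0.51 and that of the PPAR-responsive genes -0.45, while the medians of other droplet proteins, other hydrolases and glycerolipid synthesis lie between -0.07 and -0.03 on this scaling and filter.

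Because these genes are also expressed in fat, adipocyte markers were read beside them. *Adipoq*, *Cidec* and *Plin1* were listed at 0.36 TPM or less in every heart, while *Cfd* and *Adig* reached 1.87 and 1.27 TPM. *Adipoq* was listed at 0.36 and 0.13 TPM in wild types against 0.04 and 0.09 TPM in heterozygotes. *Cidec* had 0.09 and 0.06 against 0.03 and 0.01, and *Plin1* overlapped at 0.05 and 0.04 against 0.02 and 0.10. These are values as deposited, where most tested genes were lower, and a difference in fat content was not tested. *Cfd* was listed at 1.87 and 0.94 TPM in wild types against 0.07 and 0.53 TPM in heterozygotes. Of 18 markers 5 were tested, 4 lower and 1 higher, with a median log2 fold change of -0.18, and 0 were called by limma. *Aqp7*, a glycerol channel gene, was the 1 with an unadjusted p under 0.05, lower without overlap at a log2 fold change of -0.45 (limma adjusted p = 0.385). Their summed scaled TPM of 393.2 and 428.4 against 301.2 and 343.6 lay almost wholly on *Fabp4*, which endothelial cells also express. The 10 cardiomyocyte markers had a median log2 fold change of -0.20, 7 lower and 3 higher. Their summed scaled TPM ranged from 24157 to 25652 in wild types and from 20712 to 24852 in heterozygotes. For 4 of these markers heterozygotes were lower without overlap, against 23.3% of all tested genes, and none had an unadjusted limma p under 0.05. The 4 atrial markers had summed scaled TPM of 806.4 and 2354 in wild-type and 1918 and 3281 in heterozygous hearts, and the 5 blood cell markers 929.8 and 987.0 against 965.4 and 2120. The median log2 fold change over the atrial markers was 0.83, but 0.067 without wild-type replicate 1, 1.70 without wild-type replicate 2, 1.27 without heterozygous replicate 1 and 0.42 without heterozygous replicate 2. That over the blood cell markers was 0.53, but -0.025 without heterozygous replicate 2 and 1.12 without heterozygous replicate 1. Medians were -0.05, -0.13, -0.16 and -0.01 over endothelial, fibroblast, smooth muscle and macrophage markers. The part of these differences in the members' values was not tested.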

How the data were processed

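Heart RNA of 2 wild-type and 2 *Ctcf* heterozygous mice was analysed. The authors trimmed reads with Trim Galore, aligned them to mm10 with STAR, quantified genes with RSEM and deposited TPM, rounded to 2 decimals. The deposited values keep no read depth, so counting error is unknown and the authors' DESeq2 test was not repeated. Replicates were taken as separate mice, since the labels speak of RNA from each mouse tissue, and p-values otherwise measure only the spread between libraries.

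TPM were divided by median-of-ratios factors over tested genes above 0 in every library, 1 was added and log2 taken. The 10036 genes whose mean TPM reached 1 were fitted with limma (3.58.1, lmFit and eBayes with trend) in R (4.3.3), two-sided, and p-values were adjusted over the whole table (Benjamini-Hochberg). Ratios within a heart were tested by exact permutation. Coordinates and exon overlaps are those of GENCODE M21 on mm10, and transcripts were compared with BLAST (2.17.0) in Python (3.11.15). The code was tested on simulated data. The 10 members and all lists were chosen with earlier results of these data known. Named genes outside the members are the main inhibitors and droplet genes, up to 3 genes of smallest p and 2 of highest mean in each list, and tested neighbours with an unadjusted p under 0.05. *Cracr2b*, *Rplp2*, *Lrg1*, *Hdgfl2*, *Ppard* and *Aqp7* were named after their values were seen.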

Additional observations from a re-analysis of the deposited data

How the results depend on the processing

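Of the 159 fits of single members under the alternatives, 148 kept both direction and side of the threshold. The fits without the eBayes trend, with robust eBayes and with a replicate block keep each log2 fold change by construction. No member was called on scaled TPM, so keeping the side of the threshold means staying uncalled. The count of 148 therefore says little about how firm the differences are. Genes called among all tested, 2 on scaled TPM, numbered 13 with TPM as deposited, 14 with mt- genes removed, 6 with their nuclear copies removed as well (chosen after seeing the data), 7 scaled on cardiomyocyte markers, 4 at a pseudocount of 0.1 and 5 with robust eBayes. Without a filter on low values limma called 0, and 2133 of 24424 genes had an unadjusted p under 0.05. With single libraries left out, where a lone library is assumed to vary like the other genotype, the count ran from 10 to 25. Members called numbered 1, *Ces1d*, with mt- genes removed and 0 otherwise. *Abhd5* was -0.33 as deposited, -0.29 once mt- genes were removed, -0.0027 without the filter and -0.15 to 0.15 with single libraries left out. *Dgat1* was -0.32 as deposited and -0.23 once mt- genes were removed. Scaled on cardiomyocyte markers, *Mgll* was 0.065 and *Plin4* 0.092, and *Plin4* ran from -0.27 to 0.00082 with single libraries left out. The shift of the median of all genes, -0.35 with TPM as deposited, -0.31 with mt- genes removed and 0.19 on cardiomyocyte markers, moves by construction with each scaling.

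Same-numbered libraries share only a number and come from different mice, and the deviations of same-numbered libraries correlated at 0.101. In a fit with a replicate block, 10 genes and 0 members were called. *Abhd5* could not be fitted at a mean TPM of at least 5. TPM hold no depth, so the precision of low members such as *Abhd5* cannot be stated beyond the spread between hearts.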
